A study of Homo sapiens with 11 samples.

Results

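The mRNAs described here encode the core of the microRNA pathway: the Argonaute proteins AGO1, AGO2, AGO3 and AGO4, the TNRC6 scaffolds TNRC6A, TNRC6B and TNRC6C, and the processing factors DROSHA, DGCR8 and DICER1. MicroRNAs are cut from hairpins, first in the nucleus by DROSHA with its partner DGCR8 and then in the cytoplasm by DICER1. The mature strand is loaded onto an Argonaute, which pairs with target mRNAs, and TNRC6 proteins bound to the Argonaute recruit deadenylases that shorten the target's poly(A) tail. The values below concern the mRNAs of these 10 genes, not the proteins or microRNAs.

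RNA bound to the small-subunit ribosomal protein RPS19 was measured by enhanced crosslinking and immunoprecipitation (eCLIP), in which RNA crosslinked to a protein by ultraviolet light is precipitated with it and sequenced. The cells were HEK293T, an established human line of embryonic kidney origin with the SV40 large T antigen. Immunoprecipitates (IPs) with a V5 antibody came from cells transfected with a plasmid for V5-tagged RPS19, with 3 replicates of the substitution R62W, 2 of the substitution R101H and 3 of the wild-type protein (WT). R62W and R101H are substitutions found in Diamond-Blackfan anemia, an inherited red cell failure. The 3 size-matched inputs came from cells without a plasmid, so IP and input differ in the presence of the plasmid as well as in the precipitation. The labels do not say whether replicates were grown as separate cultures, so any p-value reflects the spread between these samples alone, part of which may be technical.

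The members are the enriched windows, stretches of 20 to 100 bases of a transcript, whose gene name was one of these 10. There were 319 of 86567 listed windows in R62W, 387 of 93331 in R101H and 30 of 15402 in WT, or 461 of 122708 windows listed in any group. No member window carried a second gene name. Each value is the authors' log2 odds ratio of IP over input, so a step of 1 is a doubling on their scale. It was deposited as the lowest, mean and highest over the replicates in which the window passed the authors' enrichment test. The value is not a plain ratio of the reads given below. In R62W, a TNRC6A window of 83% G and C had 2.22 from 92 IP and 11 input reads. An AGO2 window of 25% G and C had 1.72 from 21 and 12. Whether the authors adjusted for G and C content is not stated in the sources used here. A window had to pass in at least 2 replicates to be listed, which for R101H means both. A window left out of a list has no value there, and its absence is no measured 0.

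Precision was limited by few reads and few replicates. The median member window had 44 IP and 13 input reads in R62W, 43 and 10 in R101H, and 38 and 12 in WT, summed over passing replicates. Library totals are not given in the tables, so depth per sample is unknown. Input counts were under 10 reads in 96 of the 319 R62W windows, 158 of the 387 R101H windows and 9 of the 30 WT windows. The median SD between passing replicates was 0.40 in R62W, 0.37 in R101H and 0.39 in WT on the log2 scale. A replicate that failed the enrichment test has no value, so this SD does not cover it. All 3 replicates passed in 169 of the 319 R62W windows and in 3 of the 30 WT windows.

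DGCR8 is both a processing factor and, as background, a substrate, since DROSHA and DGCR8 cut hairpins in its own mRNA. The mature microRNAs annotated in those hairpins are shown because the DGCR8 windows below were placed relative to them. They are RefSeq sequences from GRCh38.p14, written 5′ to 3′ with the seed, bases 2 to 8, in capitals.
hsa-miR-3618: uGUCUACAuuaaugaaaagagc
hsa-miR-1306-5p: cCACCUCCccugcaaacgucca
hsa-miR-1306-3p: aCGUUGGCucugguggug
They lie on the plus strand at chr22:20085797-20085818, chr22:20086072-20086093 and chr22:20086112-20086129, in the order given. Their seeds differ from each other.

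Each substitution had windows of 9 of the 10 genes, and WT of 5. Over all 8697 genes with a window in any list, 89.5% had one in R62W, 93.5% in R101H and 38% in WT. The genes without a WT window were all 4 Argonautes and TNRC6C, and TNRC6C had no window in any list. Of the 461 member windows, 69.2% were listed in R62W, 83.9% in R101H and 6.51% in WT, beside 70.5%, 76.1% and 12.6% of all windows. Members had 10.6 times as many windows in R62W as in WT and 12.9 times as many in R101H, against 5.62 and 6.06 times over all genes. Each group has 1 list, so these ratios have no test. They also mix transcript features, since introns held 31.4% of all WT windows and 10% of the WT member windows. Coding windows alone numbered 190 in R62W, 211 in R101H and 15 in WT for members. Over all genes they numbered 46024, 50152 and 5514. With every list shortened to the length of the WT list by lowest q, an alternative added after seeing the data, 53 member windows were left in R62W and 68 in R101H, against 30 in WT.

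**Figure D1:**
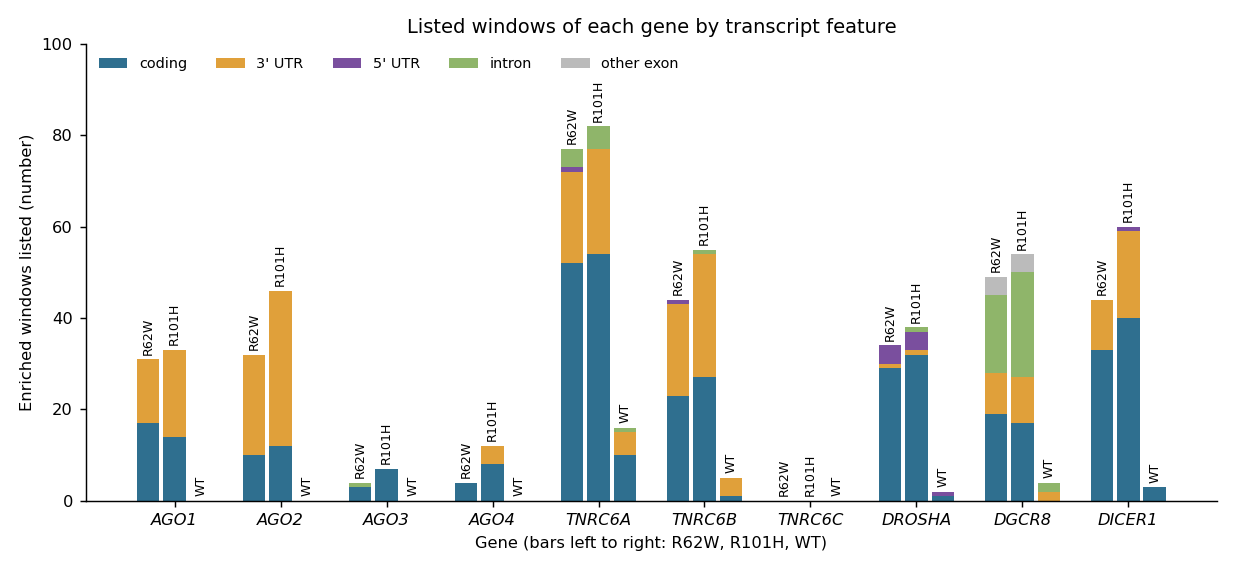
Number of listed windows of each gene (vertical axis) in R62W, R101H and WT (bars from left to right), coloured by transcript feature. TNRC6A had the most windows in each group, with 77, 82 and 16, and no Argonaute bar rises above 0 in WT.

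Coding sequence held 59.6% of the member windows in R62W (95% Clopper-Pearson interval 54.0% to 65.0%), 54.5% in R101H (49.4% to 59.6%) and 15 of 30 in WT (31.3% to 68.7%). Over all windows the coding shares were 53.2%, 53.7% and 35.8%. The 3′ UTR held 30.4% in R62W, 35.4% in R101H and 36.7% in WT, beside 23.2%, 26.3% and 21.4% of all windows. Introns held 6.90%, 7.75% and 10% of member windows, beside 13.5%, 10.7% and 31.4% of all. Intron windows here include those labelled as adjacent or proximal to a splice site. Intervals cover counting error only, and adjacent windows of one transcript share its RNA, so windows are not independent. The median G and C content of member windows was 46.6% in R62W, 45.5% in R101H and 44.7% in WT, beside 50%, 49.2% and 50% over all windows.

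Enrichment was then compared over the windows that were listed. The median log2 odds ratio was 1.95 in R62W (range 0.84 to 3.83), 2.09 in R101H (0.86 to 4.36) and 1.92 in WT (1.05 to 3.59). Over all listed windows the medians were 1.90, 2.00 and 2.03. Of the member windows, 169 of 319 passed in all 3 replicates in R62W (53.0%, beside 44.5% of all) and 3 of 30 in WT (10%, beside 22.8%). All 387 R101H windows passed in both replicates, as the rule for listing requires. The plot of enrichment by gene shows that the spread within a gene was wider than the distance between groups.

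**Figure D2:**
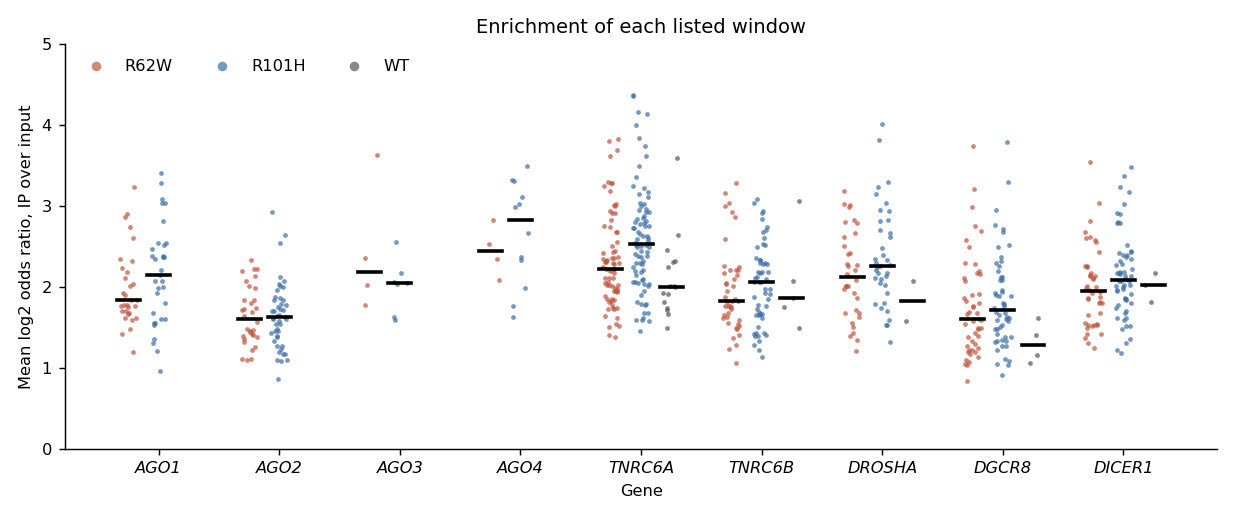
Mean log2 odds ratio of IP over input (vertical axis) of each listed window, by gene, in R62W, R101H and WT (from left to right), with black lines at the medians. The highest TNRC6A window stands at 4.36 and the highest DROSHA window at 4.01, both in R101H, while most AGO2 windows lie below 2.

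Argonautes hold the microRNA and meet the target, and AGO2 is the one with well-established slicing activity. AGO1 had 31 windows in R62W and 33 in R101H, of which 22 were listed in both. They were split between coding sequence (17 in R62W and 14 in R101H) and the 3′ UTR (14 and 19). AGO2 had 32 windows in R62W and 46 in R101H, with 24 in both lists, and 22 and 34 of them lay in the 3′ UTR. That makes AGO2 the gene of this set with the highest 3′ UTR share, at 68.8% in R62W and 73.9% in R101H.

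For AGO3, R62W listed 4 windows and R101H 7, and for AGO4 the numbers were 4 and 12. AGO1, AGO3 and AGO4 neighbour each other on chromosome 1, and the numbers of windows are not comparable between genes, since transcripts differ in length and level. All 7 AGO3 windows in R101H were coding, while 4 of the 12 AGO4 windows lay in the 3′ UTR. AGO4 windows had few reads, with a median of 19 IP and 4 input reads in R62W and 19.5 and 4 in R101H. Their median log2 odds ratio was 2.44 in R62W and 2.82 in R101H, against 1.60 and 1.63 for AGO2, whose median input counts were higher, at 14.5 and 17.

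Some of the highest Argonaute windows spread widely between replicates. The AGO1 coding window at chr1:35913922-35914001 was the highest of AGO1 in R101H, with replicate values of 2.39 and 4.42 there and 1.79 and 4.0 in the 2 passing R62W replicates. It rested on 2 input reads in each list. The AGO1 coding window at chr1:35893097-35893187 was the highest in R62W, at 3.21 and 3.26, beside 1.74 and 3.35 in R101H. For AGO2, the window at chr8:140528247-140528346 in the 3′ UTR stood at 1.60, 2.50 and 2.58 in R62W and at 2.47 and 3.39 in R101H. The ranges of the groups overlap in all 3 windows.

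The AGO3 window with the strongest enrichment was intronic. At chr1:36023323-36023422 it had 2.68, 3.31 and 4.89 in R62W, from 131 IP and 13 input reads, and it was listed in neither R101H nor WT. It was the only intron window of an Argonaute in any list. AGO4 peaked in R101H at the coding window chr1:35831501-35831574, with 2.15 and 4.83 from 23 IP and 2 input reads.

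TNRC6 proteins, also called GW182 proteins, link Argonaute to the deadenylases CCR4-NOT and PAN2-PAN3. TNRC6A had 77 windows in R62W, 82 in R101H and 16 in WT, the most of the 10 genes in each list. Coding windows made up 52, 54 and 10 of them, and 3′ UTR windows 20, 23 and 5. The median log2 odds ratio was 2.22 in R62W, 2.53 in R101H and 2.00 in WT. TNRC6B had 44, 55 and 5 windows, of which 20, 27 and 4 lay in the 3′ UTR, with medians of 1.83, 2.06 and 1.87.

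At the 3′ end of TNRC6A the windows ran together. From the stop codon window, which starts at chr16:24823708, to the last listed base at 24826221, 25 windows were listed in any group, 21 of them in R62W, 24 in R101H and 5 in WT. Their medians were 2.32, 2.78 and 2.30. In R101H, 25 abutting windows without a gap covered chr16:24823432-24825834, reaching from the coding sequence into the 3′ UTR. The longest such run had 12 windows in R62W (chr16:24823904-24825062) and 2 in WT (chr16:24824097-24824289). A run breaks wherever a window misses the listing rule, so its length is set by that rule as well.

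**Figure D3:**
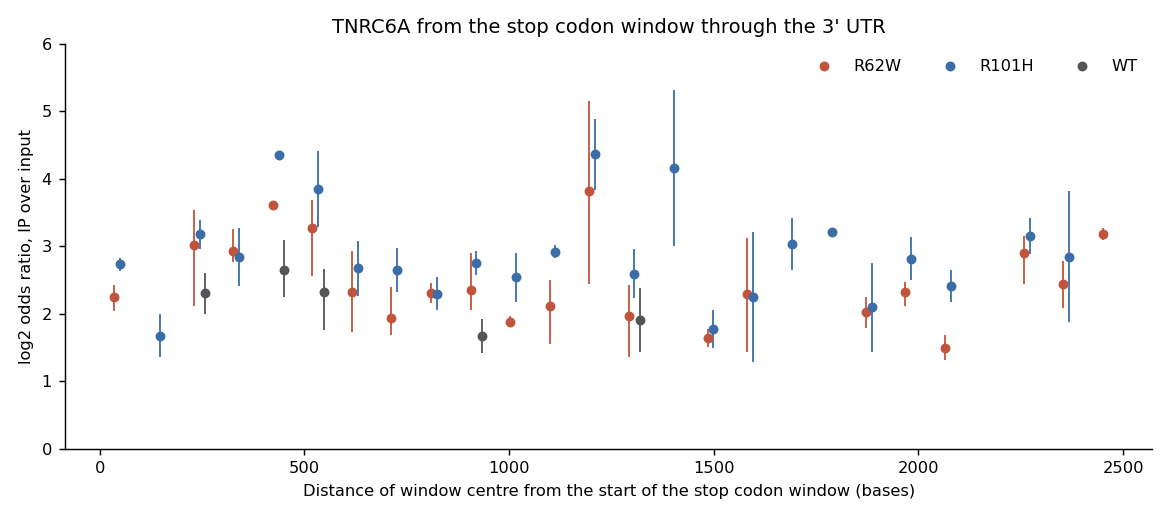
Windows of TNRC6A by distance in bases from the start of the stop codon window (horizontal axis) against the log2 odds ratio of IP over input (vertical axis), with points at the mean and lines from the lowest to the highest passing replicate. R101H has 24 of the 25 windows, R62W 21 and WT 5, and the 5 WT points lie between 1.67 and 2.64.

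The member window with the lowest limma p, both for R62W minus WT and for R101H minus WT, lay in this stretch. At chr16:24824097-24824193 the replicate values were 3.58, 3.62 and 3.64 in R62W, 4.35 and 4.37 in R101H, and 2.25, 2.58 and 3.10 in WT. IP reads were 183, 185 and 104, and input reads 19, 10 and 19. The groups do not overlap: both R101H values lie above the R62W values, and all R62W values lie above the WT values. The difference R101H minus WT was 1.71 (SE 0.39), with an adjusted p of 0.162 in limma over 11082 windows. R62W minus WT was 0.97 (SE 0.29), with an adjusted p of 0.401 in limma over 12263 windows.

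The abutting window at chr16:24824194-24824289 had 2.56, 3.60 and 3.68 in R62W, 3.28 and 4.41 in R101H, and 1.76, 2.54 and 2.67 in WT. Here R62W overlaps WT, and R101H does not. Another TNRC6A window, in coding sequence at chr16:24730253-24730300, was the highest member window in WT. It had 3.29, 3.63 and 4.47 in R62W, 3.14 and 3.84 in R101H, and 3.22 and 3.97 in WT, so the 3 groups overlap there. An intron window at chr16:24729847-24729946 was also listed in all groups, with 1.95 and 2.48 in R62W, 1.51 and 1.72 in R101H, and 1.69 and 2.15 in WT.

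For TNRC6B, the 3′ UTR window at chr22:40324937-40325036 had 2.58 and 3.75 in R62W and 2.71 and 3.41 in WT, with 4 input reads in each, and was not listed in R101H. It was the highest TNRC6B window in WT. The highest in R62W was at chr22:40335509-40335608, with 2.95 and 3.60 from 16 IP reads, near the RefSeq end of the gene. In R101H it was an intron window at chr22:40300587-40300686, with 1.97 and 4.20 from 13 IP reads.

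Among the processing factors, DROSHA, the nuclear RNase III, had 34 windows in R62W, 38 in R101H and 2 in WT. Coding windows made up 29, 32 and 1 of them, and only 1 window in R62W and the same number in R101H lay in the 3′ UTR. That window, at chr5:31401338-31401431, was the highest of DROSHA in R101H, with 2.59 and 5.43, beside 2.09, 2.18 and 4.77 in R62W. The 5′ UTR of DROSHA had 4 windows in R62W, 4 in R101H and 1 in WT, of 6, 5 and 1 such windows over all 10 genes. The 5′ UTR window listed in every group, chr5:31530861-31530924, had 2.09, 2.32 and 3.59 in R62W, 1.86 and 3.77 in R101H, and 1.95 and 2.21 in WT, and the groups overlap.

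DGCR8, the double-stranded RNA-binding partner of DROSHA, had 49 windows in R62W, 54 in R101H and 4 in WT. It differed from the other members in its introns, which held 17 of its windows in R62W, 23 in R101H and 2 in WT. These were 17 of 22, 23 of 30 and 2 of 3 intron windows over all 10 genes. The intron windows had median log2 odds ratios of 1.58, 1.60 and 1.23. The highest in R62W, at chr22:20109725-20109824 and labelled as proximal to a 3′ splice site, had 2.99 and 4.48 with only 1 input read. In R101H the highest was at chr22:20092709-20092808, labelled as adjacent to a 3′ splice site, with 2.31 and 5.28, beside 1.78, 1.88 and 4.59 in R62W.

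The WT list held 4 DGCR8 windows. The only member window listed in WT alone was the intron window at chr22:20082350-20082447, with 1.05 and 1.06 from 89 IP and 40 input reads. In the first part of the gene, the intron window at chr22:20080884-20080980 had 1.41, 1.58 and 1.74 in R62W, 1.14 and 2.07 in R101H, and 0.98 and 1.83 in WT. The 3′ UTR window at chr22:20110403-20110500 had 1.13, 1.35 and 1.40 in R62W, 1.45 and 1.51 in R101H, and 0.99 and 1.32 in WT, with 154, 132 and 104 IP reads. It had the highest input count of all DGCR8 windows in each list. The second 3′ UTR window, chr22:20111383-20111480, had 1.57, 1.95 and 1.95 in R62W, 1.31 and 1.99 in R101H, and 1.48 and 1.76 in WT.

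No listed window in any group overlapped mature miR-3618, miR-1306-5p or miR-1306-3p, whose sequences are given above. In R62W and in R101H the nearest window before them ended at 20084794, 1002 bases from miR-3618, and the nearest after them began at 20086152, 22 bases past the end of miR-1306-3p. In WT the nearest windows ended at 20082447 and began at 20110403. The plot along DGCR8 shows windows on both sides of the hairpins in R62W and in R101H. Windows that failed the listing rule have no value, so this says nothing about the reads there.

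**Figure D4:**
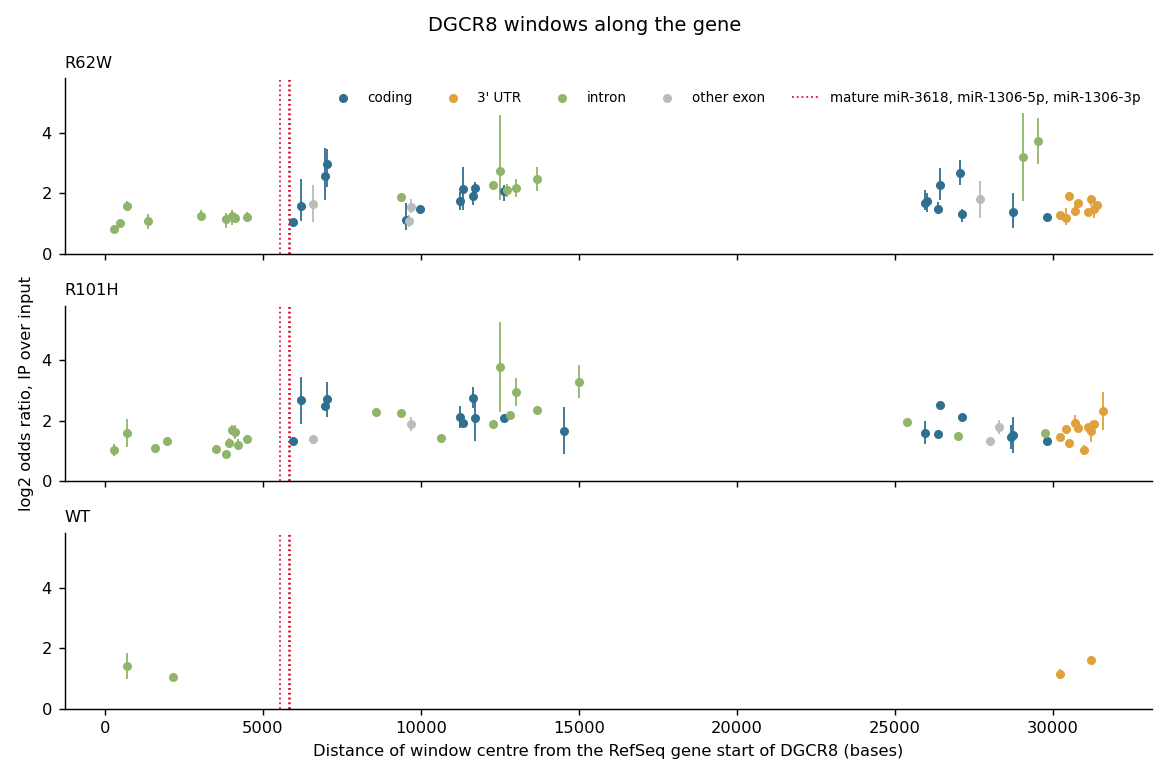
Windows of DGCR8 by distance in bases from the RefSeq gene start (horizontal axis) against the log2 odds ratio of IP over input (vertical axis), with panels for R62W, R101H and WT from top to bottom, points at the mean and lines over the passing replicates. Dotted lines mark the 3 mature microRNAs, and green intron points lie both before and after the hairpins in R62W and in R101H.

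DICER1, the cytoplasmic RNase III that cuts the hairpin to its mature length, had 44 windows in R62W, 60 in R101H and 3 in WT. Coding windows made up 33, 40 and 3, and 3′ UTR windows 11, 19 and 0. The medians were 1.95, 2.09 and 2.02. The longest run of abutting windows had 10 windows in R101H, at chr14:95087221-95088213, and 4 in R62W, at chr14:95087618-95088014, inside the R101H run. The coding window at chr14:95096615-95096713 was the highest in WT, with 1.82, 2.00 and 4.61 in R62W, 1.71 and 5.04 in R101H, and 1.44 and 2.89 in WT. There, 1 replicate of R62W, at 4.61, and 1 of R101H, at 5.04, lie above all others, and the groups overlap. The stop codon window, chr14:95090498-95090597, was the highest in both R62W, with 1.97 and 5.12, and R101H, with 1.68 and 5.28. It rested on 5 input reads in R62W and 7 in R101H. The RefSeq span of DICER1 also holds miR-3173, and no listed window overlapped its mature strands in any group.

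**Figure D5:**
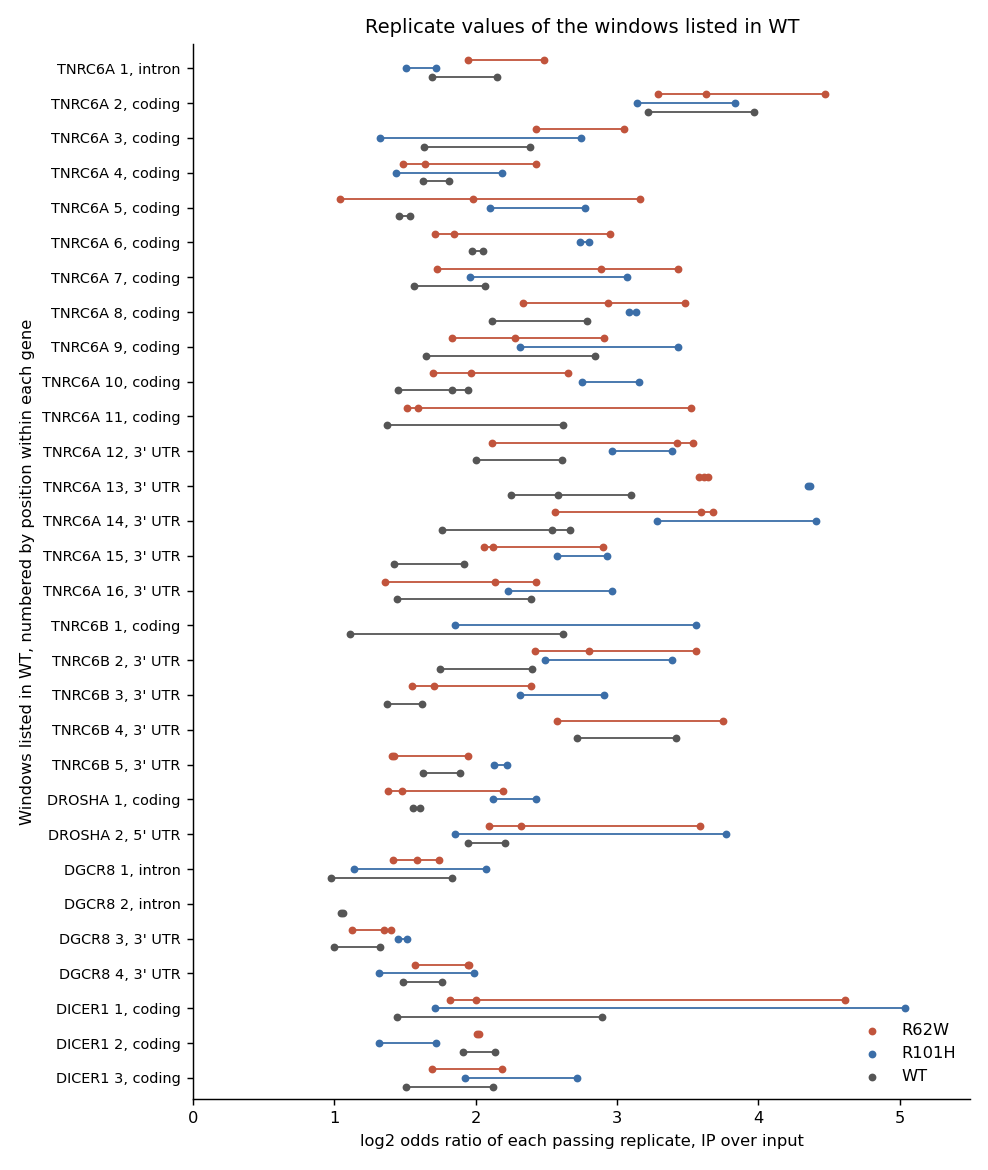
Log2 odds ratio of IP over input (horizontal axis) of each passing replicate for the 30 member windows listed in WT (vertical axis, numbered by position within each gene), with R62W, R101H and WT from top to bottom in each line. R62W and WT overlap in 24 of the 28 windows they share, R101H and WT in 13 of 27, and in TNRC6A window 13 all groups stand apart. Over all shared windows, R62W lay fully above WT in 24.1% and fully below in 4.24%, and R101H in 48.4% and 3.84%.

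The lists were next compared at the windows they share. For R62W minus WT, limma called 0 of 28 member windows at an adjusted p under 0.05, beside 0% of 12263 windows. It also called 0 of 3 among windows that passed in every replicate (0.0374% of all such windows) and 0 of 19 with at least 10 input reads (0.0131%). At an unadjusted p under 0.05 there was 1, the TNRC6A 3′ UTR window above, beside 10.2% of all, and Fisher's exact test on the summed reads called 0 (1.52% of all). The median difference over members was 0.26, the same as the 0.26 over all windows tested, and single values ran between -0.16 and 0.97. It was above 0 in 26 of 28 windows, beside 72.4% of all windows tested, but once centred on the median of all windows the members' median was -0.0085. These medians mix features: introns gave 2 of the 28 member windows but 2358 of the 12263, with a median of -0.087 over all genes. Coding windows had a median of 0.21 in members and 0.33 over all genes, and 3′ UTR windows 0.38 and 0.36. All passing R62W replicates lay above all passing WT replicates in 4 windows (24.1% of all) and below in 0 (4.24%). Replicates that did not pass have no value and were left out. Those 4 were 3 TNRC6A windows and 1 TNRC6B window, named by gene after their values were seen.

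For R101H minus WT, limma called 0 of 27 member windows, beside 0% of 11082. At an unadjusted p under 0.05 there were 5, of which 4 were in TNRC6A and 1 in TNRC6B, beside 21.3% of all. Their differences lay between 1.08 and 1.71, and 4 of the 5 were 3′ UTR windows. Of the 27 windows tested, 19 were TNRC6A or TNRC6B windows, and 10 lay in the 3′ UTR. Over all genes, 827 of the 3072 windows tested in the 3′ UTR were under that p. The median difference was 0.69 over members and 0.60 over all windows, so members were 0.09 above the general shift with all features mixed. Coding windows had a median of 0.67 in members and 0.63 over all genes, and 3′ UTR windows 0.87 and 0.80. All R101H replicates lay above all passing WT replicates in 13 windows (48.4% of all) and below in 1 (3.84%). The last was the DICER1 coding window at chr14:95103443-95103540, with 2.01 and 2.02 in R62W, 1.31 and 1.72 in R101H, and 1.91 and 2.14 in WT.

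The call on the TNRC6A window at chr16:24824097-24824193 depended on which windows entered the fit, on the test and on centring. R101H minus WT had an adjusted p of 0.0456 in limma with windows that passed in every replicate of both groups, where 18.2% of 2730 windows were called. With at least 10 input reads it was 0.0370 in limma, where 9.42% of 6945 were called. By Fisher's exact test it was 0.0232 (14.1% of all). That test compares the summed reads of these libraries only, not the deposited odds ratios. Among windows that passed in every replicate and centred on their own median, the difference was 0.81 and the adjusted p 0.347 in limma, and this alternative was added after seeing the data.

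For R101H minus R62W, limma called 0 of 246 member windows, beside 0% of 59874. At an unadjusted p under 0.05 there were 4, namely 3 in TNRC6A and 1 in DGCR8, beside 1.8% of all, and Fisher's exact test called 0 (0.294% of all). The median difference was 0.28 over members and 0.21 over all windows, and 0.071 over members once centred. Without centring it was 0.30 in AGO1 (22 windows), 0.20 in AGO2 (24), 0.35 in TNRC6A (72), 0.26 in TNRC6B (30), 0.27 in DROSHA (27), 0.18 in DGCR8 (36) and 0.40 in DICER1 (32). AGO4 had 0.64 at its 1 shared window, and AGO3 had -0.25 over 2 windows, both below 0. All R101H replicates lay above all passing R62W replicates in 46 windows (17.9% of all) and below in 11 (3.59%). These comparisons share samples: WT stands in 2 of them, and so do R62W and R101H, and R62W and WT had identical summed input counts in 79.7% of 2672 windows that passed in every replicate of both groups.

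A list of 65 other genes of the pathway gives the setting of these members. Windows of 58 were listed in R62W, of 56 in R101H and of 35 in WT, with 1128, 1129 and 183 windows in all. These are 89.2%, 86.2% and 53.8% of the 65 genes, beside 89.5%, 93.5% and 38% of all genes. Limma called 0 of the 167 windows shared by R62W and WT, 0 of the 157 shared by R101H and WT, and 0 of the 800 shared by R101H and R62W, with 8, 29 and 14 at an unadjusted p under 0.05. Over all windows tested, 10.2%, 21.3% and 1.8% were under that p. In that order, the median differences were 0.27, 0.58 and 0.24.

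Among microprocessor cofactors, all 10 genes had windows in each list, and the RNA-binding protein KHSRP had 75 in R62W, 56 in R101H and 18 in WT. In the group of export and Dicer partners, the RNA editing enzyme ADAR had 35, 38 and 3, and the export receptor XPO5 had 22, 27 and 0. Of the genes for tailing and decay, ZSWIM8, which acts in target-directed microRNA decay, had 71, 66 and 12, and the uridylyl transferase TUT4 had 18, 22 and 1. Of the loading factors and partners of Argonaute, the cochaperone FKBP4 had 32, 29 and 8, and FMR1 had 24, 26 and 1. CNOT1, the scaffold of CCR4-NOT, had 65, 84 and 9, and the poly(A) binding protein PABPC4 had 40, 36 and 9. Of the decapping and P-body factors, PATL1 had 37, 38 and 4, and EIF4ENIF1 had 32, 29 and 1. LIN28A, FKBP5, TRIM71, CNOT7 and DCP1B had no window in any list.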

How the data were processed

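Reads were handled with fastp and STAR on the GRCh38 build, per the submitters' processing notes, while versions and the program that called windows are not stated in the sources used here. For each IP group the authors deposited a window list built from its replicates together. The deposited counts are IP and input reads per window, per the file headers. From the values they are sums over passing replicates only: summed input ratios of R62W to WT were 1.00 where equal numbers passed and 1.59 where 3 and 2 did. The authors' log2 values give the lowest, mean and highest odds ratio of IP against input, and they are not plain ratios of the summed reads. Of the authors' enrichment test, the deposited highest q-value was used, and every listed window had a highest q of at most 0.2. The deposited fraction of G and C bases was turned into a percent, and the deposited number of passing replicates was used as it stands.

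Members were found by splitting gene names. Coordinates were written 1-based. Where 3 replicates passed, the middle value follows from the other deposited ones. The values went into lmFit and eBayes of limma 3.58.1 in R 4.3.3, over all windows listed in both groups, Benjamini-Hochberg adjusted at 0.05, after the script was tested on simulated data. No count model was fitted, since counts are summed over replicates. The deposited tables of repeat elements were not used here. RefSeq matched all 10 genes, and no genome was at hand to print window sequences.

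Named windows are, per gene, the highest in each list, those called, those listed in WT alone, and the 5 with the most WT IP reads among those in all lists. For each pathway list the 2 genes with the most windows and those with none are named. Some genes that these rules name are not reported here. The members and lists were chosen with earlier results of these data known. Alternatives were a stricter q of 0.05, windows passing in every replicate, at least 10 input reads, centring, limma with a trend and robust prior, Fisher's exact test, and lists of equal length. A 95% Clopper-Pearson interval covers counting error only.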

Additional observations from a re-analysis of the deposited data

How the results depend on the processing

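Replicate values carry no replicate numbers, so no replicate could be left out. No paired analysis was possible because the columns carry none. Keeping windows with q up to 0.05 left 90 in R62W, 198 in R101H and 3 in WT. The medians were then 2.40 in R62W and 2.64 in WT, the coding share was 60.6% in R101H and 33.3% in WT, the median R62W minus WT was 0.47 over 3 windows, and the median R101H minus WT was 1.19 over 2. With windows that passed in every replicate, 169 were left in R62W and 3 in WT, where the median was 2.32. The median difference was then 0.96 for R62W minus WT and 1.52 for R101H minus WT, each over 3 TNRC6A windows. Centred on the median of all windows that passed in every replicate, these became 0.39 and 0.62, with 0 called. That centring was added after seeing the data. Without it, 1 window was called for R101H minus WT, as it was with at least 10 input reads and by Fisher's exact test. At least 10 input reads left 229 windows in R101H. Lists of equal length left 53 in R62W and 68 in R101H. Centring on all windows turned the median R62W minus WT to -0.0085 and left 0.089 for R101H minus WT. The median R101H minus R62W was 0.071 after the same centring, and 0.047 with windows that passed in every replicate, centred on their own median. Low input counts limit precision, above all in AGO4, whose windows had at most 7 input reads.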

Other observations

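Genes whose window profile lay close to that of TNRC6A included BAZ2A and KANSL1. The profile holds the number of windows in 12 classes, 4 transcript features in each of 3 groups, as log2 of the number plus 1, and was compared with 8269 genes by Euclidean distance. BAZ2A stood at a distance of 1.52, with 88 windows in R62W, 88 in R101H and 9 in WT. KANSL1 had 48, 53 and 10, at a distance of 1.91. For DICER1 the nearest were CELSR1 at 1.46, with 70, 69 and 3 windows, PSME4 at 1.72, with 45, 46 and 3, and USP31 at 1.75, with 34, 44 and 1. The groups share inputs and transcript length sets the number of windows, so a short distance is a description only.

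AJUBA, an Argonaute partner in the pathway list, was the gene of that list with windows in WT alone, 2 in number, and it was picked out after its values were seen.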
